A study of Homo sapiens with 15 samples.

Results

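The mitotic, or G2/M, genes are those whose products drive a cell through G2 phase and mitosis. The set held 48 named genes, and every one of them had at least 1 probe set with its symbol alone among the 11963 genes of the array. They were covered by 79 of 22283 probe sets. Membership rested on gene names and used no measured value, but the genes were chosen with earlier results of these data known. Of the 48 genes, 47 were bright enough to be tested, among 6884 tested genes in all. NDC80, a kinetochore protein that holds microtubules, was too dim for the test.

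Mitotic genes are transcribed late in the cell cycle and silenced in resting cells. Their promoters typically carry a cell cycle homology region and CCAAT boxes. Through the homology region the DREAM complex represses them in resting cells, and in G2 the MuvB core with B-MYB and FOXM1 activates them. CDK1 with cyclins B and A starts mitosis, Polo-like and Aurora kinases build the spindle, and the anaphase-promoting complex with its partner CDC20 ends it by marking securin and cyclin B for destruction. In a dividing cell line the summed level of these transcripts can follow the share of cells in G2 and mitosis, which these arrays do not measure.

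Total RNA of A549 cells was hybridised to Affymetrix human arrays in 5 groups of 3 arrays, named a, b and c. A549, a line the labels call bronchial, is known as a lung adenocarcinoma line with epithelial features. Cells were harvested after 4 h, 12 h or 24 h with interleukin 13 (IL-13), a type 2 cytokine that acts on airway epithelium, or as untreated controls at 24 h and at 0 h. The labels give no dose, and no 4 h or 12 h control was analysed here, so at those times IL-13 and time in culture cannot be told apart. The labels do not say that the 3 arrays of a group came from separate cultures, so the p-values hold for the spread among arrays and perhaps only for technical spread. The array number limits precision.

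Array medians of the deposited signal lay between 56.75 and 72.46, with 59.3 ± 4.4 after 24 h of IL-13 and 69.5 ± 3.1 in 24 h controls (SD, n = 3 each). The beta-actin 3'/5' ratio, a measure of RNA integrity, was 1.18 ± 0.08 after 24 h of IL-13, 1.17 ± 0.07 in 24 h controls and 1.001 ± 0.065 at 0 h. Of 8 epithelial and A549 markers 7 were bright enough to test, and their summed signal was 29746 to 35076 after 24 h of IL-13 and 31722 to 34738 in 24 h controls. The same sum was 106.9 to 152.8 against 159.8 to 202.5 for leukocyte markers, 62.94 to 109 against 117.3 to 157.6 for fibroblast markers and 71.97 to 114.8 against 92.25 to 109.6 for endothelial markers, of which 1 of 4, 0 of 5 and 1 of 4 with a probe set passed the brightness filter. The leukocyte and fibroblast sums, taken over deposited signals, did not overlap between the groups. After quantile normalization the mean log2 difference was -0.01 over the 4 leukocyte markers, 2 of them below 0. It was -0.08 over the 5 fibroblast markers, 3 of them below 0. The part of these markers in the results was not tested. In a bulk extract, fewer cells in mitosis and less mitotic RNA per cell cannot be told apart.

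The mean of the 48 genes on the log2 scale was flat for 12 h and low at 24 h with IL-13. It was 8.55 ± 0.02 at 0 h, 8.57 ± 0.10 after 4 h of IL-13, 8.54 ± 0.03 after 12 h and 8.32 ± 0.07 after 24 h (SD, n = 3 each). The 24 h controls stood at 8.57 ± 0.15. By array the mean was 8.27, 8.27 and 8.40 after 24 h of IL-13, against 8.56, 8.72 and 8.42 in 24 h controls. The groups did not overlap, but array c of each lay close to the other. No p is attached to this mean.

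**Figure D1:**
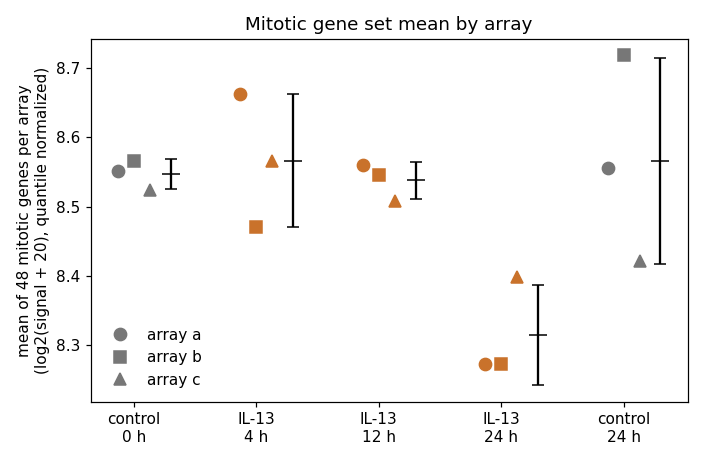
Mean log2(signal + 20) of the 48 mitotic genes on each array after quantile normalization, by group; the bars give the mean and SD of 3 arrays. The 3 arrays with 24 h of IL-13 lie between 8.27 and 8.40, and the 3 arrays of the 24 h control between 8.42 and 8.72.

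The first question was how IL-13 for 24 h compared with 24 h without it. Of 47 tested mitotic genes, 10 fell and 0 rose (limma, adjusted p under 0.05), which is 21.3% of them. Of all tested genes 3.07% fell. The log2 difference was below 0 for 45 of the 47, with a median of -0.27 and a range of -0.66 to 0.17, while the median over all tested genes was 0.00. Relative to the median tested gene the set mean stood at -0.25 after quantile normalization and at -0.20 under the other 3 scalings. Those 3 differ only by a constant for each array, so values relative to the median tested gene are equal under them by construction. With arrays scaled to their medians, under which the median tested gene stood at 0.14, the members below 0 numbered 29, those below the median tested gene 41 and those called 1. The count of calls was 5 to 7 with 1 of the 6 arrays left out. It was 5 without array a or c of the IL-13 group and 6 without array b or c of the control. Members outside the 10 can enter these counts, as happened without array c of the control.

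The transcription factor FOXM1 and the proliferation marker MKI67 had the lowest mean difference of the role groups. MKI67, the antigen of the Ki-67 stain, which coats mitotic chromosomes, had signals of 265.7, 300.7 and 285.6 after 24 h of IL-13, against 455, 442.2 and 447.3 in 24 h controls. No array of one group reached the other, and the log2 difference was -0.66 ± 0.11 (SE, 1.58-fold lower, adjusted p = 0.00212). MKI67 kept its call in all 18 alternatives. Its 3 other probe sets stood at -0.53, -0.32 and -0.28, and the first of these passed when every probe set was tested (adjusted p = 0.00477). FOXM1, which activates G2/M genes, had signals of 246.8, 216.4 and 151.7 after 24 h of IL-13, against 336.7, 322.7 and 293.8 in 24 h controls. It fell by 0.61 ± 0.14 (1.52-fold, adjusted p = 0.0122) without overlap. The call rests on a cross-hybridizing probe set, the only one FOXM1 has, and was lost without array c of the IL-13 group (-0.44) and with arrays scaled to their medians (-0.43).

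Of 4 genes, 3 passed in the group that ubiquitinates and cleaves proteins to release sister chromatids. UBE2C, the ubiquitin-conjugating enzyme of the anaphase-promoting complex, had signals of 720.3, 600 and 587.7 after 24 h of IL-13, against 783.4, 887.8 and 820 in 24 h controls. It fell by 0.47 ± 0.09 (1.39-fold, adjusted p = 0.00477). CDC20, the activator of that complex, had signals of 400, 401.9 and 347.4 after 24 h of IL-13, against 452.5, 546.1 and 475 in 24 h controls. The groups did not overlap, and the fall was 0.39 ± 0.11 (1.31-fold, adjusted p = 0.0388). ESPL1 encodes separase, the protease that cuts cohesin. Its signals were 139, 78.17 and 138.7 after 24 h of IL-13, against 185.7, 199.9 and 195.4 in 24 h controls. It fell by 0.61 ± 0.17 (1.53-fold, adjusted p = 0.0337), with array b of the IL-13 group far below the others, and its other probe set stood at -0.30 (adjusted p = 0.168). PTTG1, or securin, the inhibitor of separase, did not pass at -0.19 ± 0.12 (adjusted p = 0.346). Its signals were 841.9, 718.9 and 832.8 after 24 h of IL-13, within the range of 733.6, 1031 and 800.8 of the 24 h controls but for 1 array.

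Of 14 kinases, cyclins and their regulators, PLK1 and CDC25B fell. PLK1, the Polo-like kinase of mitotic entry and spindle assembly, had signals of 216.3, 204.8 and 226.1 after 24 h of IL-13, against 359.3, 268.4 and 297.2 in 24 h controls. It fell by 0.47 ± 0.13 (1.39-fold, adjusted p = 0.0307). CDC25B, a phosphatase that activates CDK1, had signals of 607, 605.3 and 501.2 after 24 h of IL-13, against 793.8, 671.1 and 763.9 in 24 h controls. It fell by 0.46 ± 0.12 (1.37-fold, adjusted p = 0.0311). For both genes every IL-13 array was below every control array. The central kinase and cyclin did not pass. CDK1 had signals of 454.3, 384.7 and 504.3 after 24 h of IL-13, against 523.8, 632.2 and 415.6 in 24 h controls (-0.26 ± 0.13, adjusted p = 0.239). CCNB1, cyclin B1, had signals of 729.9, 788.1 and 806.6 after 24 h of IL-13, against 876.9, 955.4 and 804.9 in 24 h controls (-0.28 ± 0.09, adjusted p = 0.0759). The deposited signals of both genes overlapped between the groups, while the quantile-normalized values of CCNB1 did not. AURKA, the Aurora kinase of the spindle poles, had signals of 333, 375 and 431.8 after 24 h of IL-13, against 414.9, 568.6 and 450.9 in 24 h controls, again with overlap (-0.36 ± 0.14, adjusted p = 0.128). Another AURKA probe set, nearly as bright, stood at -0.10 (adjusted p = 0.627 when every probe set was tested). Of the 14, NEK2 alone was above 0, at 0.05 ± 0.12, and its other probe set stood at -0.12.

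Among 12 motors and spindle proteins all were below 0 and TPX2 and PRC1 passed. TPX2, which activates Aurora A and nucleates spindle microtubules, had signals of 430.8, 619.2 and 514.9 after 24 h of IL-13, against 703.1, 794.2 and 675.2 in 24 h controls. It fell by 0.55 ± 0.11 (1.46-fold, adjusted p = 0.0077), with no overlap. PRC1, which bundles microtubules of the spindle midzone, had signals of 478.8, 493 and 593.9 after 24 h of IL-13, against 620.7, 753.3 and 583 in 24 h controls. Array c of the IL-13 group was above array c of the controls, and the difference was -0.39 ± 0.11 (1.31-fold, adjusted p = 0.0453). KIF14, a kinesin of cytokinesis, missed the threshold at -0.53 ± 0.18 (adjusted p = 0.0757). KIF20A, a kinesin of the midzone, stood at -0.35 ± 0.12 (adjusted p = 0.0857).

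In the chromosome structure group TOP2A, the topoisomerase that untangles sister chromatids, fell by 0.39 ± 0.10 (1.31-fold, adjusted p = 0.0301). Its signals were 864, 1034 and 1060 after 24 h of IL-13, against 1212, 1288 and 1045 in 24 h controls, so 1 control array lay within the IL-13 range. Its other, dimmer probe set stood lower, at -0.72 (adjusted p = 0.00863 when every probe set was tested). The condensin subunits SMC4 and NCAPH stood at -0.23 and -0.35 and did not pass. None of the 5 spindle checkpoint genes (BUB1, BUB1B, BUB3, MAD2L1, TTK), the 4 tested centromere and kinetochore genes (CENPA, CENPE, CENPF, ZWINT) or the 3 cytokinesis genes (RACGAP1, ECT2, BIRC5) passed. Their differences ran from -0.40 for CENPF to 0.17 for CENPE. BIRC5, or survivin, of the chromosomal passenger complex, missed narrowly at -0.34 ± 0.10 (adjusted p = 0.05005). NDC80, untested, had a mean signal of 64.8 after 24 h of IL-13 and 44.6 in 24 h controls, where 1 array was at 9.144.

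Of the 10 calls, those of UBE2C and TPX2 also held with any 1 array left out, but were lost with arrays scaled to their medians (-0.20 and -0.29), and that of UBE2C also with arrays scaled to the median tested gene (-0.33). The other 6, besides MKI67 and FOXM1 above, were lost with no filter, with only the compared groups, with arrays scaled to their medians and with certain arrays left out. Of these 6, TOP2A, CDC25B, CDC20 and PRC1 were also lost with signals scaled as deposited (-0.37 to -0.26) or to the median tested gene (-0.32 to -0.21), and ESPL1 and PRC1 with array weights (-0.53 and -0.38). TOP2A lost its call without array a or c of the IL-13 group or a or b of the control, at -0.43 to -0.30. PLK1 lost it without any array of the IL-13 group or a or c of the control, at -0.51 to -0.37. CDC25B lost it without array a or c of either group, at -0.49 to -0.36. ESPL1 lost it without array b of the IL-13 group or any of the control, at -0.66 to -0.36. CDC20 lost it without array a or c of the IL-13 group or b or c of the control, at -0.42 to -0.31. PRC1 lost it without array a or b of the IL-13 group or any of the control, at -0.45 to -0.30. In all of these the difference stayed below 0.

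**Figure D2:**
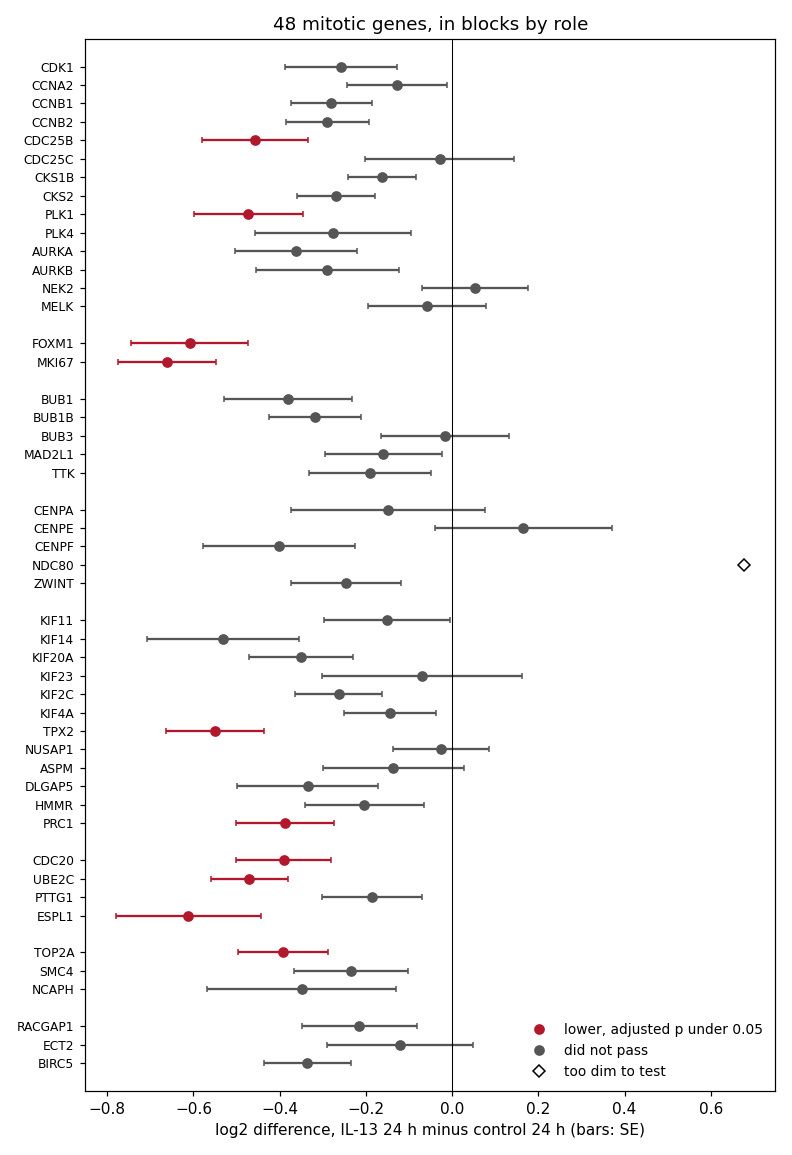
Log2 difference of each of the 48 genes between 24 h of IL-13 and the 24 h control, in blocks by role, with bars of 1 SE; red points passed at an adjusted p under 0.05 and the open diamond is NDC80, which was too dim to test. All 10 genes that passed lie left of 0, and of the tested genes NEK2 and CENPE lie right of it.

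Over all 79 probe sets of the members, 72 were below 0 in the same comparison, with a median of -0.23. With every probe set tested, 12 of the 68 bright enough were called lower and 0 higher, beside 640 called in either direction of 9850. Probe sets of a gene did not always give the same size. NUSAP1 stood at -0.03 on its brighter probe set and at 0.32 on its other, and the 4 probe sets of BUB3 lay between -0.02 and 0.03.

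Since 10 members fell and none rose, the promoters of all members were read for the motifs named above. The windows are those of RefSeq (GRCh38.p14), from 250 bases before to 50 bases after the start, and 40 of the 48 members matched, with 54 windows. The cell cycle homology region was searched as TTTGAA or TTCGAA and the CCAAT box as CCAAT, on both strands. TTCGAA reads the same on both strands. At least 1 homology region stood in 63.0% of the member windows, against 16.4% of all 35116 promoters and 12.2% of the 8605 promoters of tested genes. A CCAAT box stood in 74.1% of the member windows, against 34.6% of all promoters, and both motifs in 53.7% against 6.38%. The genes called lower after 24 h of IL-13 against the 24 h control had 10 windows, 4 of them of CDC25B. FOXM1, TPX2 and UBE2C had no window. Both motifs stood in 7 of the 10, and in 22 of the 44 other member windows. For members called lower against 0 h the order was reversed, with both motifs in 5 of 12 windows and in 24 of the 42 others. These matches describe letters in a window, and no binding was measured.

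The sequences run from 120 bases before to 20 bases after the start, and are those of called genes with 1 window and of KIF20A, whose brightest probe set fell most of the members between 12 h and 24 h of IL-13. They are written 5′ to 3′ on the gene's strand, and capitals mark the homology region and the CCAAT box, which reads ATTGG on the other strand. In MKI67 the TTTGAA at -29 runs into an ATTGG and overlaps it. The stretches of TOP2A and KIF20A hold only CCAAT boxes, and TOP2A has homology regions farther upstream, at -194 and -151.
PLK1, chr16:23678769-23678908 (+): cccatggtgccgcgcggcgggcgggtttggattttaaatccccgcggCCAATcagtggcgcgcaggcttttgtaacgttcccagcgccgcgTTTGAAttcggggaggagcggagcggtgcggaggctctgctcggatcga
MKI67, chr10:128126404-128126543 (-): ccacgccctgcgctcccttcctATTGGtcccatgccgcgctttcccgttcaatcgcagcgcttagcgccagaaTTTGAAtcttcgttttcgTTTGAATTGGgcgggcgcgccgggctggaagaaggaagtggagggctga
PRC1, chr15:90994516-90994655 (-): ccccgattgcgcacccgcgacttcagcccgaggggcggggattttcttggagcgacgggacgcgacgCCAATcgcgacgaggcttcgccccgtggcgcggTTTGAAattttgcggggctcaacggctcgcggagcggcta
CDC20, chr1:43358861-43359000 (+): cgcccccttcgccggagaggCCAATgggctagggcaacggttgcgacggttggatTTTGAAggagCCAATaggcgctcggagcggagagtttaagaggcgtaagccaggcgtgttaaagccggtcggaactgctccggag
ESPL1, chr12:53268179-53268318 (+): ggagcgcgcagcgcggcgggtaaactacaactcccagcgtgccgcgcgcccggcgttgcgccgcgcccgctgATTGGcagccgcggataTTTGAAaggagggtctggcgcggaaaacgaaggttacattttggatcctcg
TOP2A, chr17:40417877-40418016 (-): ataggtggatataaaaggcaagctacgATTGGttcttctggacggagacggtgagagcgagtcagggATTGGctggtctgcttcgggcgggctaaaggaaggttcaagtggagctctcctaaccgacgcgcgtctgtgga
KIF20A, chr5:138178992-138179131 (+): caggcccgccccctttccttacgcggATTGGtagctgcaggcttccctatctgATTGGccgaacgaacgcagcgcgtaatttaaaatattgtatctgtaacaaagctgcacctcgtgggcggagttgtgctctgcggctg

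The second comparison asked what 24 h in culture without IL-13 changed. Of the 47 members, 1 rose and 0 fell, beside 3.62% of all tested genes called in either direction. The members' median was 0.02 and 22 of 47 were below 0, beside -0.003 and 50.5% over all tested genes. SMC4, a condensin subunit, had signals of 746.2, 738.4 and 548.9 in 24 h controls, against 477.5, 482.3 and 451.8 at 0 h. The groups did not overlap and SMC4 rose by 0.57 ± 0.13 (1.49-fold, adjusted p = 0.0237). Its other bright probe set stood at 0.39 (adjusted p = 0.0571). The call was lost when any of the 0 h arrays, or array a or b of the 24 h control, was left out, at 0.50 to 0.59. It was also lost with arrays scaled to their medians (0.32) or to the median tested gene (0.45), and with the mean of the probe sets (0.39).

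PTTG1 had signals of 733.6, 1031 and 800.8 in 24 h controls, against 1245, 1291 and 1075 at 0 h. These did not overlap, and the difference of -0.40 ± 0.12 missed the threshold (adjusted p = 0.060). PTTG1 passed as a fall under all 3 other scalings (-0.67 to -0.49), with a filter at the 75th percentile, with array weights (-0.43) and without array b of the 24 h control (-0.54). TOP2A stood at 1212, 1288 and 1045 in 24 h controls, against 1096, 986.8 and 993.4 at 0 h (0.33 ± 0.10, adjusted p = 0.0832). PLK1 stood at 359.3, 268.4 and 297.2 in 24 h controls, against 244.4, 249.3 and 219.4 at 0 h (0.36 ± 0.13, adjusted p = 0.115). MKI67 stood at 455, 442.2 and 447.3 in 24 h controls, against 376.8, 364.5 and 369.5 at 0 h, without overlap (0.30 ± 0.11, adjusted p = 0.143). The 3 other probe sets of MKI67 stood at 0.00, 0.03 and 0.03. On the brightest probe set of each gene the mean of MKI67, TOP2A, PLK1 and SMC4 was thus higher in the 24 h control than at 0 h, and CDC20 (-0.19), FOXM1 (-0.20) and CDC25B (-0.21) were lower. Of these 7 genes SMC4 passed.

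The time course asked how the members stood at 4 h, 12 h and 24 h in IL-13 relative to untreated cells at 0 h. These comparisons share the 0 h arrays. After 4 h no member was called by limma, beside 1.22% of all tested genes, and 6 members and 733 of all genes had an unadjusted p under 0.05. KIF20A had the smallest p. It had signals of 299.4, 275 and 288.3 after 4 h of IL-13, against 236.5, 219.1 and 216.5 at 0 h (0.36 ± 0.12, adjusted p = 0.220). CENPF, a kinetochore protein, had signals of 338.4, 175.3 and 265.6 after 4 h, against 397.4, 360.5 and 300.1 at 0 h (-0.42 ± 0.18, adjusted p = 0.384). KIF14 had signals of 168.6, 128.7 and 94.21 after 4 h, against 223.2, 151.4 and 170.8 at 0 h (-0.41 ± 0.18, adjusted p = 0.389). The arrays of CENPF and KIF14 spread widely and overlapped. CDC25B stood at 645.3, 693.2 and 912 after 4 h, against 808.9, 1034 and 927.5 at 0 h (-0.28 ± 0.12, adjusted p = 0.394).

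After 12 h of IL-13, 1 member rose and 2 fell, beside 4.14% of all tested genes called in either direction. KIF20A had signals of 322.1, 328 and 386.9 after 12 h, all above the 0 h arrays, and rose by 0.60 ± 0.12 (1.52-fold, adjusted p = 0.00801). FOXM1 had signals of 257.1, 246.8 and 218 after 12 h, against 356.8, 400.6 and 359.9 at 0 h. It fell by 0.56 ± 0.14 (1.48-fold, adjusted p = 0.0236). CDC25B had signals of 653.6, 593.2 and 588.6 after 12 h and fell by 0.54 ± 0.12 (1.45-fold, adjusted p = 0.0182). For all 3 genes the groups did not overlap. MELK, a kinase of proliferating cells, had signals of 507.3, 475.6 and 465.2 after 12 h, against 689, 684.8 and 626.8 at 0 h, and did not pass (-0.41 ± 0.14, adjusted p = 0.108). Leaving out 1 array moved the count of calls to between 0 and 3. It was 1 without array b or c of 0 h or array b of 12 h, and 0 without array c of 12 h, where KIF20A stood at 0.51. FOXM1 was lost without any array of 0 h or without array b or c of 12 h (-0.59 to -0.50), and CDC25B without array b or c of either group (-0.53 to -0.47).

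After 24 h of IL-13, 12 members fell relative to 0 h and 0 rose, beside 3.47% of all tested genes that fell. The log2 difference was below 0 for 42 of 47, and the members' median was -0.26. Of all tested genes 49.5% were below 0, with a median of 0.003. All 4 genes of the ubiquitination and separase group passed. UBE2C had signals of 720.3, 600 and 587.7 after 24 h of IL-13, against 912.9, 970.7 and 916.9 at 0 h, a fall of 0.53 ± 0.09 (1.44-fold, adjusted p = 0.00149). CDC20 fell by 0.58 ± 0.11 (adjusted p = 0.00371), with 0 h signals of 568.3, 631.8 and 569.8. PTTG1 fell by 0.59 ± 0.12 (adjusted p = 0.0048). Its signals were 841.9, 718.9 and 832.8 after 24 h of IL-13, against 1245, 1291 and 1075 at 0 h, while arrays a and c of the 24 h control lay within the IL-13 range and array b above it. ESPL1 fell by 0.57 ± 0.17 (adjusted p = 0.0484), with 0 h signals of 174.6, 190.3 and 185.4. Its other probe set stood at -0.27 (adjusted p = 0.248 when every probe set was tested).

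FOXM1 had the largest fall of the members against 0 h, at 0.81 ± 0.14 (1.75-fold, adjusted p = 0.00141). Its mean signal was 372 at 0 h, 425 after 4 h of IL-13, 241 after 12 h and 205 after 24 h, with 318 in 24 h controls. CDC25B fell by 0.66 ± 0.12 (adjusted p = 0.00308) and TPX2 by 0.53 ± 0.11 (adjusted p = 0.00805). BIRC5 had signals of 255.2, 238.1 and 214.4 after 24 h of IL-13, against 316.3, 353.2 and 319.7 at 0 h (-0.44 ± 0.10, adjusted p = 0.0125). The checkpoint kinase BUB1B had signals of 190.2, 185.4 and 195.2 after 24 h of IL-13, against 267.9, 288.5 and 252.8 at 0 h (-0.44 ± 0.11, adjusted p = 0.0189). In each of these genes all IL-13 arrays lay below all 0 h arrays. CKS2, a small subunit of the CDK complex (-0.34, adjusted p = 0.0285), cyclin B2 or CCNB2 (-0.34, adjusted p = 0.0369) and cyclin A2 or CCNA2 (-0.40, adjusted p = 0.0476) also fell. MKI67 stood at -0.36 ± 0.11 (adjusted p = 0.066), TOP2A at -0.06 ± 0.10 and PLK1 at -0.11 ± 0.13, none of which passed. When every probe set was tested, another of MKI67 passed at -0.53 (adjusted p = 0.00347), another of BUB1 at -0.74 (adjusted p = 0.0153) and the dimmer one of TOP2A at -0.59 (adjusted p = 0.0253). The other 2 of MKI67 stood at -0.29 and -0.25, and the other 2 of BIRC5 at -0.17 and 0.05. The other probe set of CCNA2 stood at -0.21 (adjusted p = 0.412).

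FOXM1, UBE2C, CDC25B, CDC20, PTTG1 and TPX2 kept their calls against 0 h in all 18 alternatives, but the other 6 did not. Leaving out 1 array gave counts of 6 to 9, with 6 without array b of 0 h and 7 without array b of the IL-13 group. BIRC5 was lost without array c of the IL-13 group or array b of 0 h, at -0.39 each. BUB1B was lost without array a or b of either group, at -0.44 to -0.39. ESPL1 was lost without array b of the IL-13 group or any array of 0 h, at -0.61 to -0.31. CKS2 and CCNB2 were lost without any array of the IL-13 group or array b or c of 0 h, at -0.36 to -0.31 and -0.38 to -0.30. CCNA2 was lost without any 1 of the 6, at -0.45 to -0.31. Apart from left-out arrays, CKS2 was lost under the 3 other scalings, BIRC5 with the mean of its probe sets (-0.18), CCNB2 under 3 alternatives, CCNA2 under 6 and ESPL1 under 7.

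**Figure D3:**
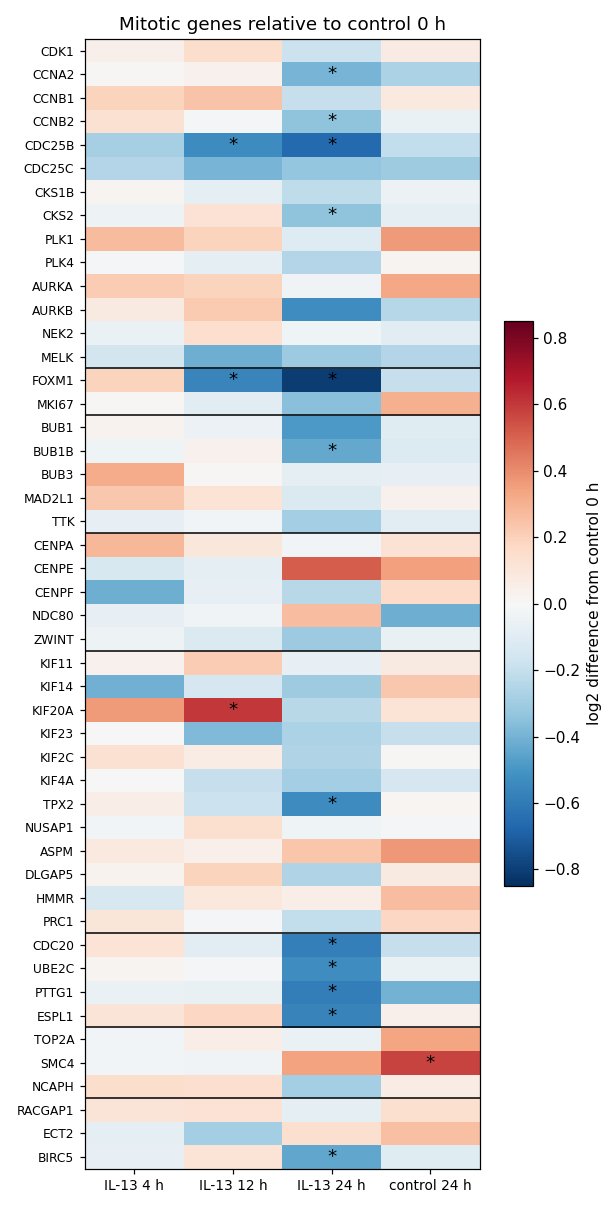
Log2 difference of each member from the 0 h control (colour, blue for lower) at 4 h, 12 h and 24 h in IL-13 and in the 24 h control, in blocks by role; stars mark adjusted p under 0.05. Stars number 0 at 4 h, 3 at 12 h and 12 at 24 h of IL-13 and 1 in the 24 h control, where SMC4 is red.

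The last comparison set 24 h of IL-13 against 12 h. Of the 47 members, 11 fell and 0 rose, beside 2.06% of all tested genes that fell. The difference was below 0 for 40, and the median was -0.24, beside 51.0% and -0.006 over all tested genes. KIF20A had signals of 200.2, 173.4 and 180.8 after 24 h of IL-13, against 322.1, 328 and 386.9 after 12 h, with no overlap. It fell by 0.84 ± 0.12 (1.78-fold, adjusted p = 4.85e-04), the largest fall here on the brightest probe set of each gene. The dimmer probe set of TOP2A fell by more, at -0.92 (adjusted p = 0.00157 when every probe set was tested), while its brighter one stood at -0.12. AURKB, the Aurora kinase of the chromosomal passenger complex, had signals of 205, 260.7 and 219.1 after 24 h, against 477.7, 303.3 and 417.1 after 12 h (-0.75 ± 0.17, adjusted p = 0.0112). ESPL1 fell by 0.74 ± 0.17 (adjusted p = 0.0132), with 236.4, 177 and 204.8 after 12 h. Its other probe set stood at -0.28 (adjusted p = 0.225 when every probe set was tested). BIRC5, of the same complex as AURKB, fell by 0.55 ± 0.10 (1.47-fold, adjusted p = 0.00274). Its signals were 379.2, 334.8 and 342.2 after 12 h. The other probe sets of BIRC5 stood at -0.17 and -0.25 (adjusted p = 0.569 and 0.204 when every probe set was tested).

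UBE2C fell by 0.52 ± 0.09 (adjusted p = 0.00195), PTTG1 by 0.52 ± 0.12 (adjusted p = 0.0118) and CDC20 by 0.49 ± 0.11 (adjusted p = 0.0125), so that all 4 genes of the ubiquitination and separase group passed here as well. The cyclins CCNB1 (-0.44 ± 0.09, adjusted p = 0.00874) and CCNA2 (-0.43 ± 0.12, adjusted p = 0.0327), CKS2 (-0.47 ± 0.09, adjusted p = 0.00465) and BUB1B (-0.48 ± 0.11, adjusted p = 0.0125) fell too. The other probe set of CCNA2 stood at -0.13 (adjusted p = 0.653 when every probe set was tested). CCNB1 had signals of 729.9, 788.1 and 806.6 after 24 h, against 1132, 1068 and 938.8 after 12 h. CKS2, among the brightest members, had 1345, 1221 and 1372 after 24 h, against 1952, 2016 and 1577 after 12 h. FOXM1 and CDC25B, which had fallen by 12 h, stood at -0.24 and -0.13 and did not pass. KIF20A and UBE2C kept their calls in all 18 alternatives. The count was 6 to 11 with 1 array left out, with 6 without array a of 12 h and 7 without array c of 12 h. Without array a of 12 h, CCNB1 (-0.39), CDC20 (-0.45) and ESPL1 (-0.65) were lost, as were PTTG1 (-0.48) and BUB1B (-0.44) without array c of 12 h. CDC20 was also lost without array c of 24 h (-0.41), AURKB without array a of 24 h or a or c of 12 h (-0.71 to -0.62), and CCNA2 without array b or c of 24 h or any of 12 h (-0.46 to -0.35). With arrays scaled to their medians CCNA2, CCNB1, CDC20, CKS2 and PTTG1 were lost (-0.46 to -0.36), and with the mean of probe sets BIRC5 (-0.33) and CCNA2 (-0.28).

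**Figure D4:**
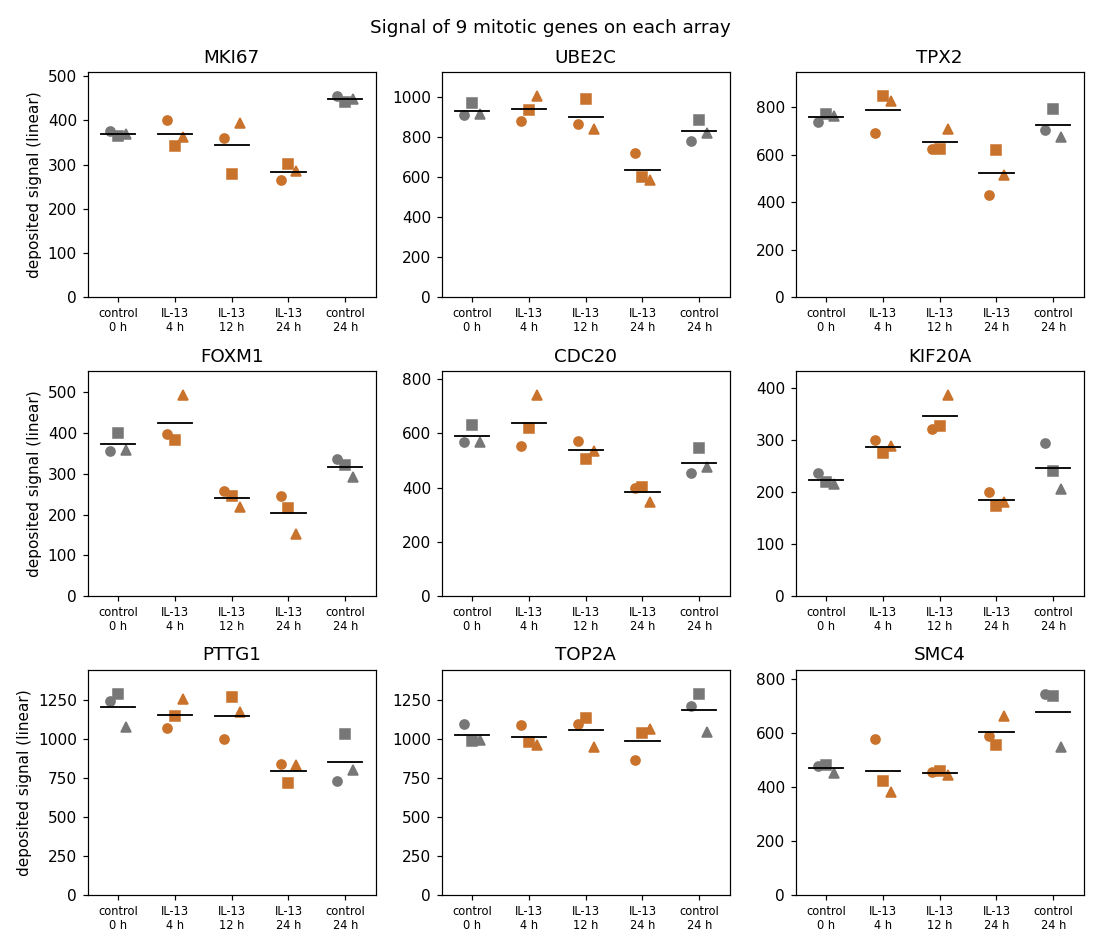
Deposited signal (linear scale from 0) of 9 mitotic genes on each of the 15 arrays, with array letters as symbols and group means as lines. UBE2C, TPX2, CDC20 and KIF20A are low after 24 h of IL-13, and FOXM1 is low after 12 h and 24 h. PTTG1 is low at 24 h with and without IL-13. On the probe set shown, SMC4 is high at 24 h with and without IL-13. Its other bright probe set stood at 0.05 after 24 h of IL-13 against 0 h.

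The members did not follow 1 course. CDC25B and FOXM1 stood low after 12 h and 24 h of IL-13. KIF20A stood high after 12 h and low after 24 h. SMC4 had signals of 589.7, 557.3 and 663.4 after 24 h of IL-13, above 477.5, 482.3 and 451.8 at 0 h. It did not pass against 0 h (0.34 ± 0.13, adjusted p = 0.143). Its other bright probe set stood at 0.05 (adjusted p = 0.864 when every probe set was tested). CENPE, a kinesin of the kinetochore, had signals of 108.3, 101.6 and 118.8 after 24 h of IL-13, against 81.34, 80.45 and 49.14 at 0 h, and was the highest tested member in that comparison without passing (0.52 ± 0.21, adjusted p = 0.153).

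A further 54 genes of mitosis, chosen by role, had a probe set in 47 cases and were tested in 40. After 24 h of IL-13, 3 fell and 0 rose against the 24 h control, with a median of -0.16, beside 3.07% of all tested genes that fell. They were the condensin subunit NCAPD2 (-0.52 ± 0.11, adjusted p = 0.0077), the CDK1-inhibiting kinase PKMYT1 (-0.75 ± 0.16, adjusted p = 0.00856) and the CENPA chaperone HJURP (-0.46 ± 0.13, adjusted p = 0.0369). NCAPD2 had signals of 166.3, 164 and 150.9 after 24 h of IL-13, against 224, 263.5 and 248.8 in 24 h controls. Against 0 h, 7 of the 40 fell and 0 rose, beside 3.47% of all tested genes that fell, among them UBE2S, which extends ubiquitin chains on targets of the anaphase-promoting complex (-0.61 ± 0.12, adjusted p = 0.00423). Against 12 h of IL-13, 8 fell and 1 rose, beside 2.06% of all tested genes that fell and 285 of 6884 that rose. The smallest p was that of TRIP13, a checkpoint ATPase (-0.58 ± 0.10, adjusted p = 0.0022), and the gene that rose was the cohesin subunit SMC3 (0.56 ± 0.15, adjusted p = 0.0285). None of 8 tested subunits and activators of the anaphase-promoting complex was called by limma in any of the 6 comparisons. Of all tested genes 1.22% to 7% were called in either direction, so 0 of 8 is near these shares. After 24 h of IL-13, 0 and 1 of the 8 had an unadjusted p under 0.05 against the 24 h and the 0 h control. Of all 6884 tested genes, 1635 and 1413 did.

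Regulators of the cell cycle outside mitosis were read in the 24 h comparison, where 3.94% of all tested genes rose and 3.07% fell. Of 15 tested DREAM, B-MYB, E2F and NF-Y genes 1 fell, E2F4 (-0.59 ± 0.15, adjusted p = 0.0223), an E2F of the DREAM complex. MYBL2, or B-MYB, stood at -0.42 ± 0.18 (adjusted p = 0.160). Of 12 tested cell cycle brakes 1 rose and 2 fell. GADD45A, a stress-induced inhibitor of CDK1, had signals of 613.5, 586.9 and 517 after 24 h of IL-13, against 303.6, 260.2 and 306.6 in 24 h controls. It rose by 0.91 ± 0.14 (adjusted p = 0.00122), and every IL-13 array lay above every control array. The antiproliferative genes BTG1 (-0.57 ± 0.13, adjusted p = 0.0125) and TOB1 (-0.38 ± 0.10, adjusted p = 0.0307) fell. CDKN1A, or p21, stood at 0.36 ± 0.15 and did not pass (adjusted p = 0.152). Of 9 tested G1 cyclins and kinases none was called by limma, and 3 had an unadjusted p under 0.05, beside 1635 of all 6884 tested.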

How the data were processed

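Values are the deposited signal intensity of each probe set (linear scale), with software not given in the sources used here. On every array the 2% trimmed mean was 150. Signals plus a pseudocount of 20 (25th percentile) were turned to log2, so changes of dim genes are understated. Since medians of arrays spread over 0.27 log2, more than the 0.1 allowed, quantile normalization followed. Each gene was represented by its brightest single-symbol probe set (cross-hybridizing sets only where there was no other, as for FOXM1, PTTG1 and CENPA). Genes with a mean log2 over 6.33 (50th percentile of probe sets) were tested.

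The tests were two-sided and run in limma 3.58.1 (R 4.3.3) with 1 mean per group over 15 arrays, 10 residual degrees of freedom and a variance trend. P-values were adjusted by Benjamini-Hochberg over 6884 genes, with 0.05 as threshold. Folds are on the log2(signal + pseudocount) scale. The steps were tested on simulated data. Values by array are given for members called in the 24 h comparison, for up to 4 with the smallest p in each other comparison, and for MKI67, TOP2A, CCNB1, CDK1, PLK1, AURKA, FOXM1 and CDC20. Of each other gene list up to 3 called genes are named. Other values by array, and MYBL2, CDKN1A and SMC3, were picked after values were seen. Members and lists were chosen with earlier results of these data known. The alternatives were other scalings, pseudocounts, filters and probe set rules, array weights, only the compared groups, a replicate block and leaving out each array. No detection calls or scanner files were used here.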

Additional observations from a re-analysis of the deposited data

How the results depend on the processing

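The differences of called members, and of the uncalled ones with the smallest p in the 4 h, 12 h and untreated comparisons, kept their sign in every alternative run. Members called after 24 h of IL-13 against the 24 h control numbered 10, but 1 with median scaling, 5 with tested-gene median scaling (chosen after seeing the data), 4 with no filter, 4 with only the compared groups and 5 to 7 with 1 array left out. In the 24 h control against 0 h the count was 1, but 2 as deposited, 5 (all lower) with median scaling, 2 with a filter at the 75th percentile, 0 with the mean of probe sets, 3 with array weights and 0 to 1 with 1 array left out. After 12 h against 0 h it was 3, and 0 to 3 with 1 array left out. After 24 h it was 12 against 0 h and 6 to 9 with 1 array left out, and 11 against 12 h of IL-13, 6 with median scaling and 6 to 11 with 1 array left out. Median scaling moved the set mean difference to -0.0605 (main value -0.25) at 24 h against the 24 h control, to -0.18 (main value 0.02) in the 24 h control against 0 h, to -0.0848 (main value -0.01) after 12 h against 0 h and to -0.16 (main value -0.22) at 24 h against 12 h. The median tested gene stood at 0.14 and -0.15 under it in the first 2 of these. Relative to that gene the set mean was -0.20 and -0.03. The letters a, b and c did not pair the arrays: correlations of same-letter deviations ran from -0.22 to 0.11 (median 0.00), and 4 of 15 arrays correlated best with their own letter. With the letter as a replicate block, 7, 1, 0, 3, 9 and 11 members were called in the 6 comparisons in the order of the text. Signal over background limits dim members such as NDC80 and CENPE.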
